A study of Mus musculus with 24 samples.

Results

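The cell cycle genes described here are 34 mouse genes in 2 sets, 18 whose transcripts are known to peak around G1/S and 16 whose transcripts are known to peak around G2/M. Each gene was taken at the probe set annotated to its symbol alone, and at the brightest one over the 24 arrays where a gene had several. By that rule 33 of the 34 were measured, 18 of the G1/S set and 15 of the G2/M set, out of 19938 genes tested. Ccnb1, which encodes cyclin B1, had no probe set of its own and is left out. The RNA came from D3 mouse embryonic stem cells, an established line of early embryo origin, carrying either a scrambled sequence (siSCR) or a knockdown of Prmt1 (siPRMT1), the gene of the main enzyme placing asymmetric dimethyl marks on arginines. Both lines were sampled in 4 states, giving 8 groups of 3 arrays: undifferentiated ES cells, embryoid bodies at day 4, and embryoid bodies given dimethyl sulfoxide (DMSO, the vehicle) or all-trans retinoic acid (ATRA, 5 micromol) for 12 h. Embryoid bodies are floating aggregates that start to differentiate once the cytokine LIF is withheld, and here they formed in bacteriological dishes. All cells of both lines had been kept for at least 3 passages on gelatin, without feeder cells. Whether the knockdown was stable, pooled or 1 clone, and whether the 12 h fell inside the 4 days, the labels leave unsaid. The labels call the replicates biological, and the 3 arrays a group limit the precision of every value below.

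The G1/S genes prepare and start DNA replication. They encode the E cyclins and their kinase Cdk2, the origin loaders Cdc6 and Cdt1, the Mcm helicase and the enzymes that supply and assemble new DNA, and activator E2F proteins drive many of them once the retinoblastoma family is phosphorylated. The G2/M genes encode the B and A cyclins, Cdk1, the mitotic kinases, the spindle checkpoint, the kinetochore and mitotic kinesins, and many are held down in G1 by the DREAM complex at a promoter element called CHR, often beside CCAAT boxes, and switched on later by B-Myb and FoxM1. Mouse ES cells are known for a short G1 phase and high levels of many of these transcripts, and G1 lengthens as they differentiate. Cell cycle phase itself was not measured here. Bulk RNA gives 1 level for all cells of a sample, so fewer cells in a phase and less RNA per cell cannot be told apart.

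All values are on the log2 scale of the deposited table, and a difference of 1 is a doubling of the signal. Prmt1 itself was lower with the knockdown in every state, by -1.37 ± 0.061 (SE) in ES cells, -0.63 at day 4, -1.11 with DMSO and -1.45 with ATRA, with limma adjusted p-values of at most 3.2e-07. Members were among the bright genes of the array, at a median percentile of 96.2 by mean signal and none under 56.9, and the median standard error of a difference was 0.059 for members against 0.093 for all genes. Arrays of a group correlated at 0.990 to 0.999. The 6 siSCR arrays with DMSO or ATRA stood apart from the other 18: the first principal component, 52.2% of the variance, placed them at 50.1 to 61.2 and the others at -26.8 to -9.44, and the SD over genes was 1.98 to 2.07 on the 6 and 2.15 to 2.27 on the 18. The labels name no batch, so in a comparison between those 6 arrays and others the groups and whatever set the 6 apart cannot be told apart. A member is said to have risen or fallen where limma's adjusted p (Benjamini-Hochberg over all 19938 genes) was under 0.05. Since many differences were small, each call was repeated under 4 scalings. These were the values as deposited, quantile-normalized, centred on each array's median, or set to 1 SD on every array. Where members were called, the accounts below give those called with the same sign in all 4 beside the calls on the values as deposited.

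The promoters of the 2 sets differed in their letters. The windows ran from 250 bases before to 50 after each gene's start in RefSeq on GRCm38.p6, and held 16 of the 18 G1/S genes and 13 of the 16 G2/M genes; Ccne2, Mcm4, Ccna2, Aurkb and Kif20a were not among them. Searched on both strands were the E2F letters TTTGGCGC, TTTCGCGC, TTTCCCGC and TTTGCCGC, the CHR letters TTTGAA and TTCGAA, and CCAAT. E2F letters stood in 9 of 16 G1/S genes and in 1 of 13 G2/M genes, against 2.26% of all 32851 windows. CHR letters stood in 3 of 16 G1/S genes and in 11 of 13 G2/M genes, against 19.2% of all windows, and CCAAT in 12 of 16 and 13 of 13, against 37.4%. A match describes letters and not a bound site. The 5 windows printed are those of members on which the results turn: Ccnb2, Cenpf and Cdk1 of G2/M, Mcm6 as a G1/S gene with E2F letters, and Ccne1, which held none of the letters searched. They are written 5′ to 3′ on the gene's own strand, with the letters found in capitals.
Ccnb2: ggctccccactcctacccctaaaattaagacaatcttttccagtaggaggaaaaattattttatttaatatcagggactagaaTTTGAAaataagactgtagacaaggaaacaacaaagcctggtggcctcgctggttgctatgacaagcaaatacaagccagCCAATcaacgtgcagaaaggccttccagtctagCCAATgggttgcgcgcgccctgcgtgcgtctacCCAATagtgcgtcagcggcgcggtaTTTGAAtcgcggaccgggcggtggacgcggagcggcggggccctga
Cenpf: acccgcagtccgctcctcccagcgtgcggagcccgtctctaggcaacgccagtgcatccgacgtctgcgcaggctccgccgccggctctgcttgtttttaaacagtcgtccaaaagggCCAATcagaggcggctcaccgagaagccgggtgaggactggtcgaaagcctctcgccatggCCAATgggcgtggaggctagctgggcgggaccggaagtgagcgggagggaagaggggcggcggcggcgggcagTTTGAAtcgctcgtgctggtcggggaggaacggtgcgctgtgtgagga
Cdk1: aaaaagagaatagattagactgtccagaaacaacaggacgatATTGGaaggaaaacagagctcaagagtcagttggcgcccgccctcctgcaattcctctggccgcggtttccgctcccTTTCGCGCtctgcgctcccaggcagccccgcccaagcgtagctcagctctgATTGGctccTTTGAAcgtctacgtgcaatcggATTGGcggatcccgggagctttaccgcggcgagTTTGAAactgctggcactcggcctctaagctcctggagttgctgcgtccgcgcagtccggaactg
Mcm6: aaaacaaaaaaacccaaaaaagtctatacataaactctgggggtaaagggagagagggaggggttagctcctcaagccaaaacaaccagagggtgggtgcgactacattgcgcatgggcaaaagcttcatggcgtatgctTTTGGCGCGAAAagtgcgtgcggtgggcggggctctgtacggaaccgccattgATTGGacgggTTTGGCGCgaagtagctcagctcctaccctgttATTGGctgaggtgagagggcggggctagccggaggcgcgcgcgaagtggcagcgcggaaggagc
Ccne1: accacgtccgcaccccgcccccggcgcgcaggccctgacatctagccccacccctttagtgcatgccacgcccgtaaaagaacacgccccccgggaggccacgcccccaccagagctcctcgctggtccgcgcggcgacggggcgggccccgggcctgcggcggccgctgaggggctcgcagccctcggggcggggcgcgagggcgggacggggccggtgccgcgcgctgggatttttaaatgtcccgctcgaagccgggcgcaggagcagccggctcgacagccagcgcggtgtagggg
The Ccnb2 window is chr9:70421505-70421804 on the minus strand, with CHR letters upstream and just inside the transcript and 3 CCAAT boxes between them. The Cenpf window is chr1:189688037-189688336 on the minus strand, with 1 CHR match and 2 CCAAT boxes. The Cdk1 window, chr10:69352863-69353162 on the minus strand, was the only G2/M window with both E2F and CHR letters, and its 3 CCAAT boxes all read on the opposite strand. The Mcm6 window, chr1:128359656-128359955 on the minus strand, holds 3 E2F matches, of which a pair overlap on opposite strands, and no CHR. The Ccne1 window is chr7:38107441-38107740 on the minus strand.

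**Figure D1:**
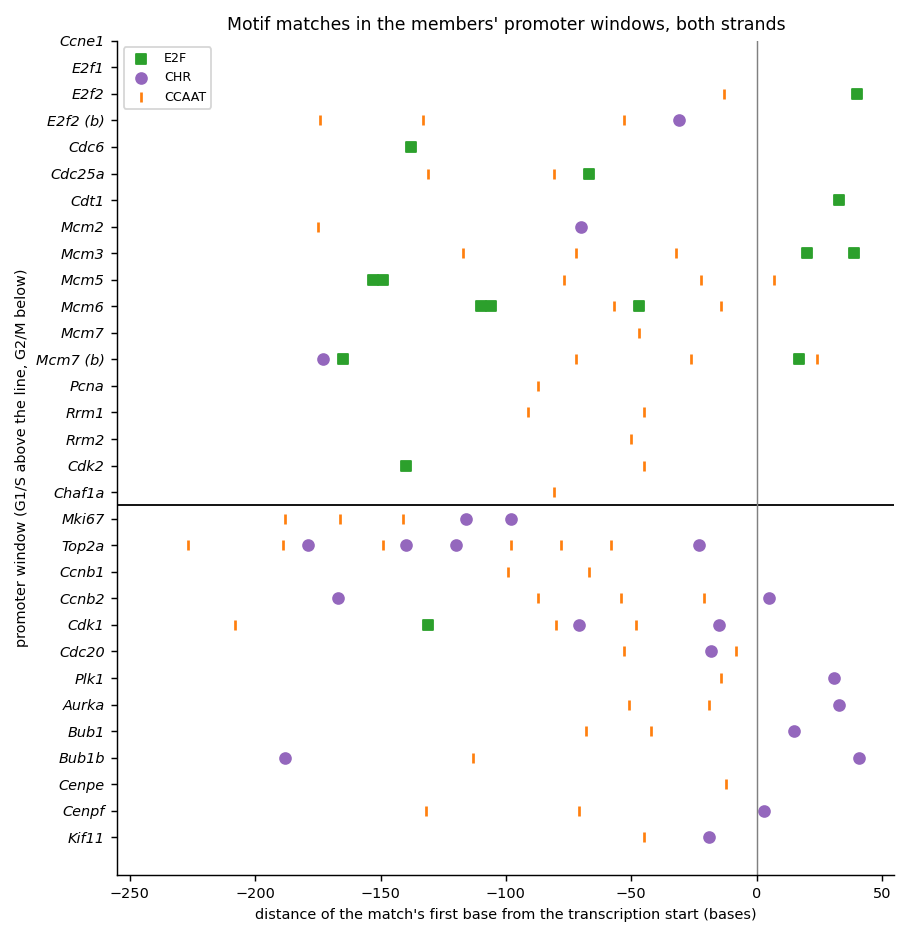
First base of each match to the E2F letters (green squares), CHR letters (purple dots) and CCAAT (orange ticks), either strand, by distance from the transcript start in bases (x axis), with 1 row a promoter window, G1/S above the line and G2/M below, and a second window of E2f2 and Mcm7 marked (b). E2F marks lie in 9 of 16 G1/S and 1 of 13 G2/M genes and CHR marks in 3 of 16 and 11 of 13; Ccnb1 has a window although the arrays gave it no value.

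Across the 8 groups the members moved over very different ranges. The group means of Ccne2, the second E cyclin, spanned 1.63 and those of E2f1, the E2F activator, and Mki67, the proliferation marker Ki-67, spanned 1.25 each, followed by the mitotic kinases Plk1 at 0.98 and Aurkb at 0.97. At the other end Pcna, the sliding clamp of DNA polymerase, spanned 0.14 and the helicase subunit Mcm7 spanned 0.18. The G2/M genes had their highest group mean in siPRMT1 ES cells for 7 of 15 and their lowest in siSCR embryoid bodies with ATRA for 9 of 15. The G1/S genes had no such shared group: their lowest mean was in siSCR embryoid bodies at day 4, with DMSO or with ATRA for 5 genes each, and their highest in siSCR with DMSO for 5 and in siSCR ES cells for 4 of 18.

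**Figure D2:**
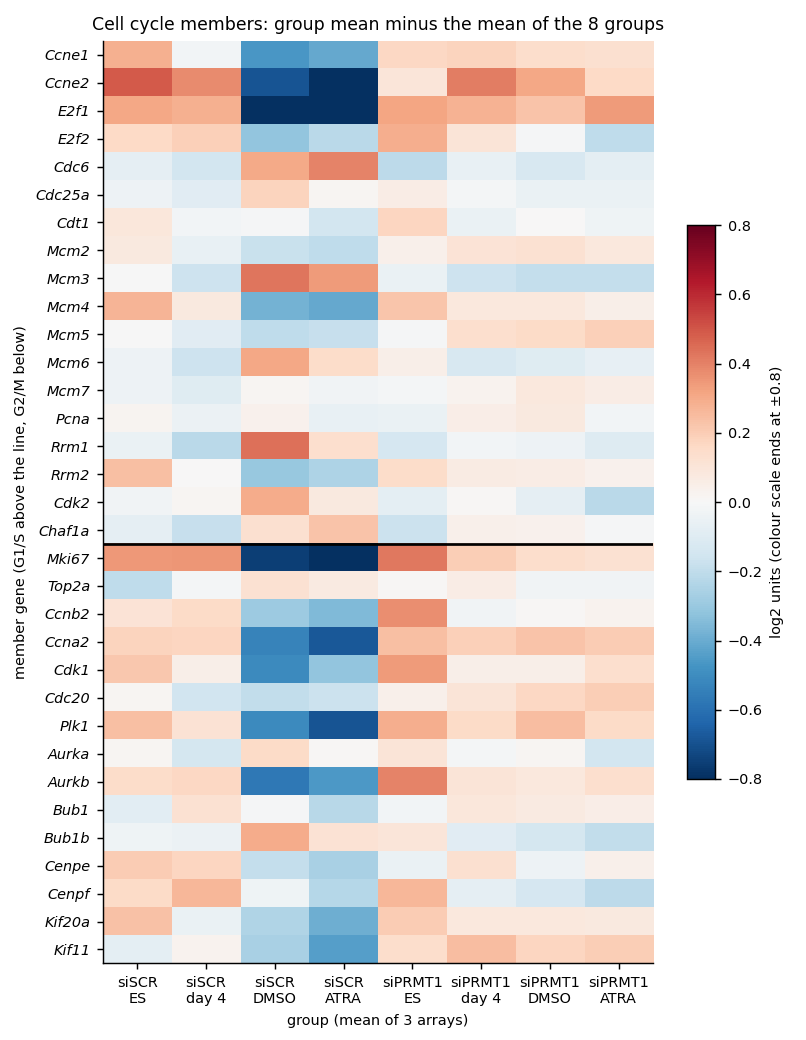
Mean of 3 arrays in each of the 8 groups (columns) for the 33 measured members (rows, G1/S above the line and G2/M below), as the difference in log2 units from the mean of the 8 groups, with the colour scale ending at 0.8 on either side. The siSCR columns with DMSO and ATRA, the arrays with a narrower SD over genes, carry the strongest colours below the mean of the 8 groups. Above that mean the strongest colour is that of Ccne2 in siSCR ES cells. The group means, as deposited, span 1.63 for Ccne2 and 1.25 for E2f1 and Mki67.

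Averaged over a set's members, each first set to its own mean over the 24 arrays, the G2/M level was 0.097 ± 0.030 (SD, n = 3) in siSCR ES cells and 0.19 ± 0.030 in siPRMT1 ES cells. It was 0.079 ± 0.030 and 0.080 ± 0.013 at day 4 in the 2 lines, -0.24 ± 0.0064 and 0.061 ± 0.019 with DMSO, and -0.32 ± 0.033 and 0.050 ± 0.053 with ATRA. The G1/S level was 0.088 ± 0.016 and 0.046 ± 0.038 in ES cells, -0.020 ± 0.040 and 0.059 ± 0.024 at day 4, -0.073 ± 0.014 and 0.039 ± 0.013 with DMSO, and -0.14 ± 0.0072 and 0.0031 ± 0.036 with ATRA. So the average G2/M level was highest in siPRMT1 ES cells and lowest in siSCR embryoid bodies with ATRA, while the 2 lines differed little at day 4. G2/M minus G1/S on the same array averaged 0.14 in siPRMT1 ES cells and 0.0087 in siSCR ES cells, and the order was the other way at day 4, with 0.022 in siPRMT1 and 0.099 in siSCR embryoid bodies. These averages are descriptions of the chosen members on the values as deposited and carry no test. The siSCR arrays with DMSO or ATRA had a narrower SD over genes, and the size of their low G2/M level depends on the scaling. With ATRA the median G2/M knockdown difference was 0.38 as deposited and 0.31 with median centring. It was 0.21 after quantile normalization and -0.018 with 1 SD for all arrays.

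**Figure D3:**
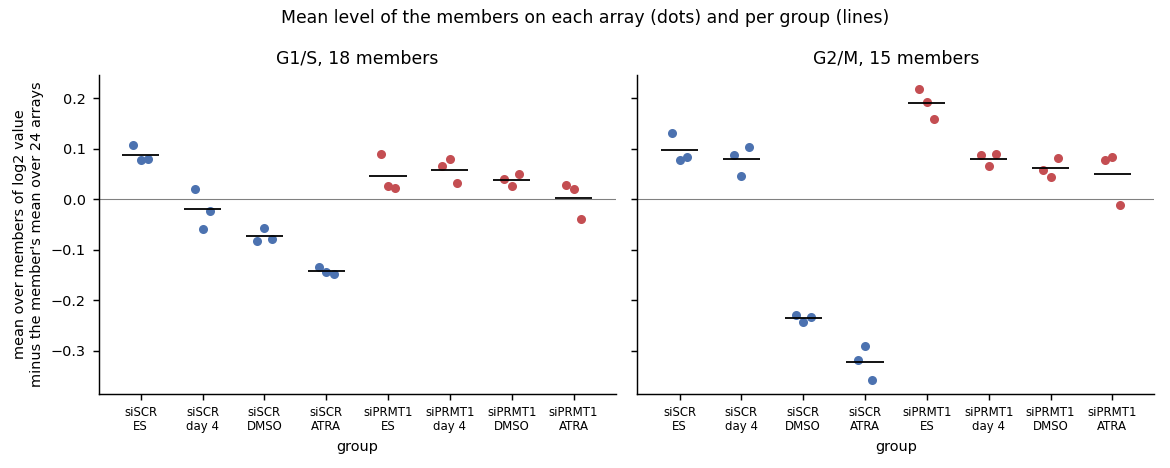
Mean over the 18 G1/S members (left) and the 15 G2/M members (right) of the log2 value minus the member's mean over 24 arrays, for each array (dots; blue siSCR, red siPRMT1), with lines at the mean of 3 arrays a group. On the values as deposited G2/M runs from -0.32 in siSCR with ATRA to 0.19 in siPRMT1 ES cells, and G1/S from -0.14 in siSCR with ATRA to 0.088 in siSCR ES cells.

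In undifferentiated ES cells the Prmt1 knockdown went with higher levels of a few G2/M genes and of no G1/S gene. Under all 4 scalings 4 of 15 G2/M genes rose, Ccnb2, Aurkb, Top2a and Kif11, against 7.35% of all genes, and none fell, against 7.43%, while 0 of 18 G1/S genes moved in either direction. On the values as deposited 5 of 33 members were called, 15.2% against 18.8% of all genes tested, 4 higher against 7.63% and 1 lower against 11.2%, so the members as a whole were not called more often than other genes. Ccnb2 encodes cyclin B2, a partner of Cdk1 in mitotic entry. Its 3 siSCR ES arrays read 12.74, 12.70 and 12.72 and its siPRMT1 ES arrays 12.94, 12.98 and 13.03. All 3 knockdown arrays lay above all 3 controls, and the difference was 0.27 ± 0.059 (adjusted p = 0.00257), a 1.20-fold level. Aurkb encodes Aurora B, the kinase of the chromosomal passenger complex. It read 11.95, 11.96 and 12.01 in siSCR ES cells against 12.26, 12.18 and 12.24 in siPRMT1 ES cells, again without overlap, and rose by 0.25 ± 0.061 (adjusted p = 0.00542). Both calls held in each of the 34 alternative settings, with an adjusted p of at most 0.0172 for Ccnb2 and 0.0258 for Aurkb.

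The other calls in ES cells were lost under several settings. Kif11, the kinesin that separates spindle poles, read 12.06, 11.86 and 11.93 against 12.18, 12.19 and 12.15 and rose by 0.22 ± 0.064 (adjusted p = 0.0192), a call lost in 5 of 34 settings. Top2a, the topoisomerase that untangles chromosomes, read 12.09, 11.90 and 11.91 against 12.21, 12.22 and 12.11 and rose by 0.21 ± 0.069 (adjusted p = 0.0356), lost in 6 of 34. Without the third siSCR array or without the second siPRMT1 array of the ES cells, 2 of the 5 calls of this comparison were left. Ccne2 was the only G1/S call on the deposited values. It read 9.97, 9.75 and 9.82 in siSCR and 9.54, 9.44 and 9.38 in siPRMT1 ES cells, fell by 0.39 ± 0.12 (adjusted p = 0.0266), and kept its call in 2 of the 4 scalings. The median difference was 0.090 over the G2/M genes and -0.050 over the G1/S genes, beside 0.0061 over all genes. Centring the arrays on their medians moved the G1/S median to 0.0016, so its sign depends on the scaling, while G2/M stayed above G1/S by 0.14 to 0.15 in all 4. The same centring moved the share of higher calls among all called genes from 40.6% to 58.8%.

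Markers of other cell types moved with this comparison. Counts are on the values as deposited, where 7.63% of all genes rose and 11.2% fell. In all 4 scalings 8 fibroblast or feeder cell genes and 1 primed epiblast marker fell. In the same scalings 5 ES cell and 4 endoderm markers rose, beside 7.35% of all genes higher and 7.43% lower. Of 15 fibroblast or feeder cell genes 10 fell and none rose, and their summed linear signal was 17055 to 17914 in siSCR and 11863 to 12668 in siPRMT1 ES cells, with Lum among the dimmest 25% of genes in both groups. Of 10 ES cell markers 5 rose and 1 fell, with sums of 62532 to 66659 and 70560 to 72809, and none of the 10 was that dim in any group. Of 12 endoderm markers 4 rose and none fell, with sums of 8375 to 8670 and 9455 to 10006 and Afp among the dimmest 25%. Of 5 primed epiblast markers 1 rose and 1 fell, with sums of 2124 to 2162 and 1940 to 2026. Their part in the higher G2/M levels was not tested.

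At day 4 the knockdown went with higher Cdc20 and lower Ccnb2 and Cenpf. These 3 G2/M genes were called under all 4 scalings, 1 and 2 of 15 G2/M genes against 7.73% and 5.93% of all genes. No G1/S gene was. Over both phases that is 3 of 33 members against 13.7% of all genes, so by this count members were not called more often than other genes. On the values as deposited 10 of 33 members were called, 30.3% against 18.4% of all genes, 11.4% higher and 7.01% lower: 6 G1/S genes rose and none fell, and 2 G2/M genes rose and 2 fell. Cenpf encodes a large protein that coats kinetochores in G2 and mitosis. Its siSCR day 4 arrays read 10.54, 10.69 and 10.63 and its siPRMT1 arrays 10.29, 10.29 and 10.27. The groups did not overlap, and the fall was -0.34 ± 0.063 (adjusted p = 0.000612), which held in all 34 alternative settings. Cdc20, the activator of the anaphase-promoting complex, read 11.65, 11.47 and 11.58 against 11.87, 11.79 and 11.81 and rose by 0.25 ± 0.057 (adjusted p = 0.00313), also in all 34. Ccnb2 read 12.73, 12.74 and 12.81 against 12.62, 12.54 and 12.59, with every knockdown array below every control. Its fall of -0.18 ± 0.059 was close to the threshold (adjusted p = 0.0409), and 13 of 34 settings lost the call. Kif11 rose by 0.21 ± 0.064 on the deposited values (adjusted p = 0.0244), from 12.07, 12.07 and 12.05 to 12.25, 12.29 and 12.28, and lost its call in 7 of 34 settings.

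**Figure D4:**
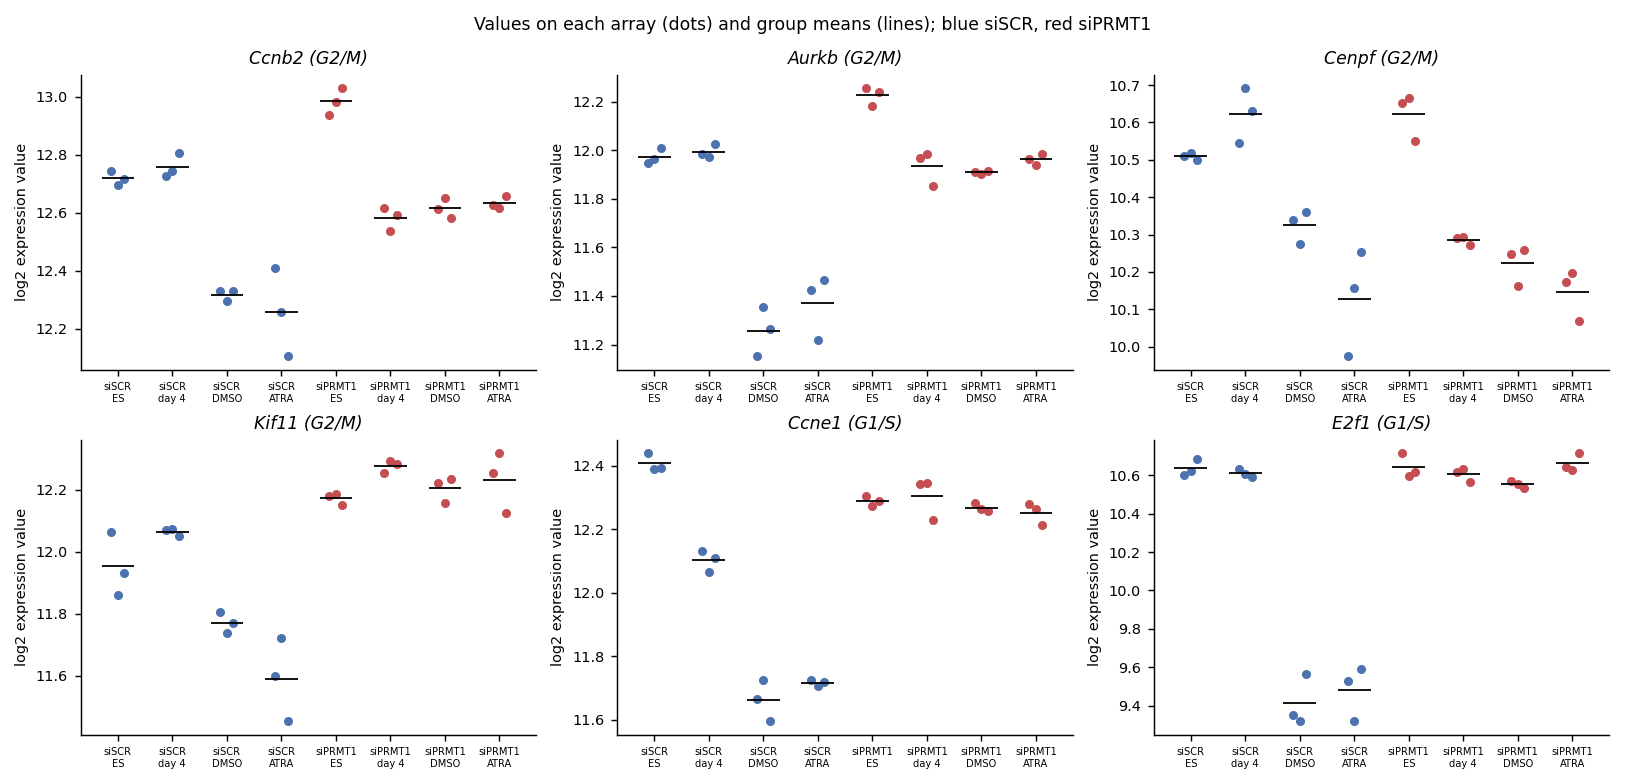
Log2 values of Ccnb2, Aurkb, Cenpf, Kif11, Ccne1 and E2f1 on each array (dots; blue siSCR, red siPRMT1), with lines at the group means and a y axis of its own for each gene. Ccnb2 lies at 12.94 to 13.03 in siPRMT1 ES cells and at 12.54 to 12.62 in siPRMT1 embryoid bodies at day 4, with the siSCR arrays of both states between them.

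The 6 G1/S genes that rose at day 4 on the deposited values were Ccne1, Mcm2, Mcm5, Mcm7, Rrm1 and Chaf1a, and none of them was called in all 4 scalings. The G1/S median difference was 0.070 as deposited, 0.024 after quantile normalization and 0.012 with 1 SD for all arrays, beside -0.016 over all genes as deposited. Ccne1, which encodes the first E cyclin and drives Cdk2 at the G1/S boundary, read 12.13, 12.07 and 12.11 in siSCR and 12.34, 12.35 and 12.23 in siPRMT1 embryoid bodies. The groups did not overlap, and the difference of 0.20 ± 0.046 (adjusted p = 0.00342) was lost only when all arrays were set to 1 SD. Mcm5, a helicase subunit, read 12.72, 12.63 and 12.62 against 12.90, 12.90 and 12.84, a difference of 0.22 ± 0.043 (adjusted p = 0.000796) with the same dependence. Rrm1, the large subunit of ribonucleotide reductase, and Chaf1a, a subunit of the histone chaperone that follows the replication fork, differed by 0.20 and 0.23, and lost their calls in 9 and 22 of 34 settings. With 1 SD for all arrays 4 members were called at day 4 in place of 10, and the same number without the first siPRMT1 array of day 4. Leaving out the siPRMT1 replicate 2 or 3, or the siSCR replicate 2 or 3, of day 4 gave 5 calls. The share of higher calls among all called genes fell from 61.9% to 51.2% after quantile normalization, beside the smaller G1/S median under that scaling.

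Cell type markers differed between the lines at day 4 as well. Counts are on the values as deposited, where 11.4% of all genes rose and 7.01% fell. In all 4 scalings 11 endoderm and 4 primed epiblast markers rose. In the same scalings 4 ES cell and 4 fibroblast or feeder cell markers fell, beside 7.73% of all genes higher and 5.93% lower. Endoderm markers rose in 11 of 12, with sums of 19487 to 21854 in siSCR and 32569 to 33914 in siPRMT1, and primed epiblast markers rose in 5 of 5, with sums of 3858 to 4118 and 7627 to 7855. Of 10 ES cell markers 5 fell and none rose, with sums of 66563 to 69192 and 61450 to 61776, and of 15 fibroblast or feeder cell markers 6 fell and none rose, with Lum and Postn among the dimmest 25%. Their part in the members' differences was not tested.

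Most members were not called for the knockdown in ES cells or at day 4. Pcna read 13.07 ± 0.041 (mean ± SD, n = 3) in siSCR ES cells and 13.00 ± 0.019 in siPRMT1 ES cells, and 13.00 ± 0.070 and 13.11 ± 0.042 at day 4. Its knockdown differences of -0.074 ± 0.052 and 0.10 ± 0.052 were not called, and a second probe set of the gene read -0.067 and 0.098. Rrm2, the small subunit of ribonucleotide reductase, read 12.54 ± 0.040 and 12.45 ± 0.0082 in ES cells and 12.31 ± 0.011 and 12.37 ± 0.051 at day 4, and its knockdown differences of -0.092 ± 0.067 and 0.059 ± 0.067 were not called either. Cdk2 stood at 11.20 ± 0.038, 11.15 ± 0.037, 11.25 ± 0.056 and 11.24 ± 0.080 in the same order. The phosphatase gene Cdc25a, whose product removes the inhibitory phosphates of Cdk2, stood at 11.54 ± 0.066, 11.64 ± 0.056, 11.49 ± 0.073 and 11.57 ± 0.054. Neither gene was called for the knockdown in ES cells or at day 4, with differences of -0.047 ± 0.059 and -0.0036 ± 0.059 for Cdk2 and 0.10 ± 0.066 and 0.080 ± 0.066 for Cdc25a.

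Among the mitotic members the same held for Aurka, Bub1 and Cenpe. Aurka, the kinase of spindle poles, read 11.53 ± 0.040 and 11.62 ± 0.068 in ES cells and 11.38 ± 0.11 and 11.50 ± 0.039 at day 4, with knockdown differences of 0.090 ± 0.057 and 0.12 ± 0.057. Bub1, which recruits the spindle checkpoint to kinetochores, differed by 0.063 ± 0.081 and -0.027 ± 0.081, and Cenpe, the kinesin that aligns chromosomes, by -0.25 ± 0.089 and -0.042 ± 0.089. None of these 6 differences was called. Cenpe in ES cells nonetheless read 10.14, 10.08 and 9.94 in siPRMT1 against 10.44, 10.21 and 10.26 in siSCR. Every knockdown array lay below every control there, as for 20% of all genes. Plk1 differed by 0.047 ± 0.054 in ES cells and 0.038 ± 0.054 at day 4, and Ccna2 by 0.060 ± 0.058 and 0.019 ± 0.058, and neither gene was called in either state. Mki67 read 11.92, 11.97 and 11.95 in siSCR and 12.05, 12.08 and 11.94 in siPRMT1 ES cells, a difference of 0.077 ± 0.069 that was not called (adjusted p = 0.543), and Cdk1 differed by 0.13 ± 0.047 (adjusted p = 0.073), not called.

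The passage from ES cells to day 4 embryoid bodies was compared within each line. In siSCR cells 9 of 33 were called as deposited, 27.3% against 28.2% of all genes, 14.5% higher and 13.7% lower, with 5 G1/S genes lower, and 1 G2/M gene higher and 3 lower. In all 4 scalings only Ccne1 and Kif20a fell, 2 of 33 members against 9.86% of all genes. Ccne1 read 12.44, 12.39 and 12.39 in ES cells and 12.13, 12.07 and 12.11 at day 4, without overlap, and fell by 0.31 ± 0.046 (adjusted p = 2.52e-05). Kif20a, a kinesin of the central spindle needed for cytokinesis, read 11.90, 11.84 and 11.85 against 11.60, 11.55 and 11.59, and its difference was -0.29 ± 0.049 (adjusted p = 8.98e-05). Both calls held in all 34 settings. Centring the arrays on their medians left 5 members called, 3 higher and 2 lower, and moved the share of higher calls among all genes from 51.3% to 66.1%.

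In siPRMT1 cells the same passage lowered G2/M genes. As deposited 12 of 33 members were called, 36.4% against 41.4% of all genes, 23% higher and 18.4% lower: 6 G2/M genes fell and none rose, and 3 G1/S genes rose and 3 fell. Under all 4 scalings the 6 G2/M genes Mki67, Ccnb2, Cdk1, Aurkb, Bub1b and Cenpf fell, 6 of 15 against 14.4% of all genes, together with 2 of 18 G1/S genes, Cdt1 and Mcm6. Ccnb2 dropped from 12.94, 12.98 and 13.03 to 12.62, 12.54 and 12.59, every day 4 array below every ES array, a difference of -0.40 ± 0.059 (adjusted p = 1.16e-05) or 1.32-fold. Cenpf went from 10.65, 10.67 and 10.55 to 10.29, 10.29 and 10.27, a difference of -0.34 ± 0.063 (adjusted p = 0.000188). Cdk1, the kinase that drives mitosis, went from 12.71, 12.73 and 12.70 to 12.45, 12.46 and 12.37, a difference of -0.29 ± 0.047 (adjusted p = 4.27e-05). The arrays of the 2 states did not overlap for any of the 3.

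Aurkb differed by -0.29 ± 0.061, from 12.26, 12.18 and 12.24 to 11.97, 11.98 and 11.85, and Bub1b, a kinase of the spindle checkpoint, by -0.19 ± 0.049. Mki67 differed by -0.22 ± 0.069 (adjusted p = 0.0128), a call that was lost without the second siPRMT1 array of the ES cells. Of the G1/S genes, Cdt1, which loads the Mcm helicase at origins, went from 12.32, 12.27 and 12.34 to 12.08, 12.18 and 12.00. Its day 4 arrays did not overlap with its ES arrays, and it fell by 0.23 ± 0.058 (adjusted p = 0.00331). Mcm6 differed by -0.17 ± 0.051 (adjusted p = 0.00892). Of the 6 G2/M genes that fell here, the 5 other than Aurkb, whose window was not searched, all held CHR letters. Cdc20, Top2a, Plk1, Aurka, Bub1 and Kif11 held CHR letters too and were not called.

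The test of the difference between the lines' passages was an interaction term, in which a positive value means a larger rise or smaller fall in siPRMT1 cells. Prmt1 itself had an interaction of 0.74 ± 0.087 (adjusted p = 2.64e-06). It rose by 0.63 in siPRMT1 cells and was not called in siSCR cells, so the knockdown was weaker at day 4 than in ES cells. The part of this in the members' interactions was not tested. As deposited 9 of 33 members differed, 27.3% against 23.8% of all genes, 15% positive and 8.83% negative: 5 G1/S genes and 1 G2/M gene were positive and 3 G2/M genes negative. Under all 4 scalings Ccne1 was positive and Ccnb2, Aurkb and Cenpf were negative, 1 of 18 G1/S genes against 10% of all genes and 3 of 15 G2/M genes against 8.18%. Over both phases that is 4 of 33 members against 18.2% of all genes, so by this count members were not called more often than other genes. The G1/S share was under that of all genes, and Ccne1 is given as a single gene. For Ccne1 the interaction was 0.32 ± 0.065 (adjusted p = 0.001), from -0.31 in siSCR cells and 0.017 ± 0.046 in siPRMT1 cells, the latter not called. For Cenpf it was -0.45 ± 0.089 (adjusted p = 0.000786), with 0.11 ± 0.063 in siSCR cells, not called, against -0.34 in siPRMT1 cells. For Ccnb2 it was -0.44 ± 0.083 (adjusted p = 0.000481), with 0.041 ± 0.059 against -0.40, and for Aurkb -0.31 ± 0.087 (adjusted p = 0.0113), with 0.020 ± 0.061 against -0.29. These 4 interactions held in each of the 34 settings. All of them draw on the same ES and day 4 arrays as the knockdown values above, so the siPRMT1 level of Ccnb2, Aurkb and Cenpf in ES cells enters both. The interaction median was 0.13 over the G1/S genes and -0.090 over the G2/M genes, beside -0.019 over all genes, and the gap between the 2 sets was -0.20 to -0.22 in the 4 scalings. The share of positive calls among all called genes was 63.0% as deposited and 48.6% with median centring. Without the second siPRMT1 array of the ES cells the count was 5, with 2 positive and 3 negative. Over the same passage the summed signal of the endoderm markers was 8375 to 8670 in ES cells and 19487 to 21854 at day 4 in siSCR cells, and 9455 to 10006 and 32569 to 33914 in siPRMT1 cells, with Afp among the dimmest 25% in ES cells. Primed epiblast marker sums were 2124 to 2162 and 3858 to 4118 in siSCR cells, and 1940 to 2026 and 7627 to 7855 in siPRMT1 cells. Fibroblast or feeder cell marker sums were 17055 to 17914 and 6408 to 6987 in siSCR cells, and 11863 to 12668 and 5226 to 5384 in siPRMT1 cells. Their part in the members' interactions was not tested.

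**Figure D5:**
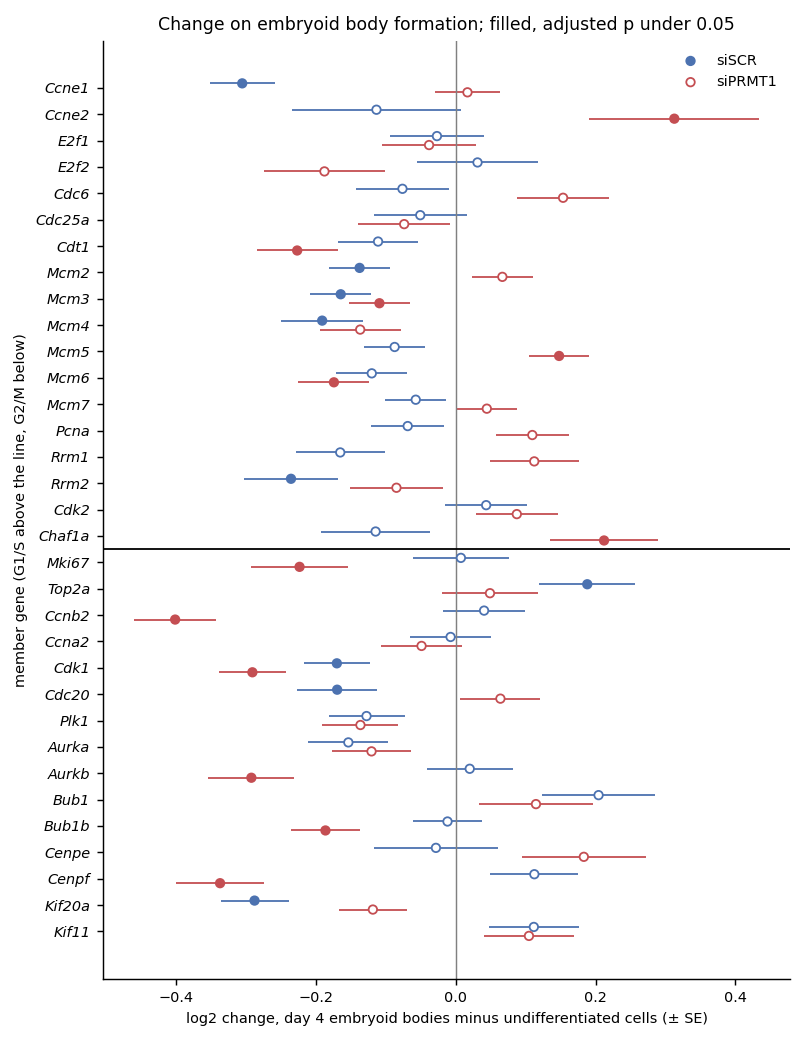
Log2 change from ES cells to day 4 embryoid bodies (x axis, with its SE as a bar) for each member (rows, G1/S above the line and G2/M below), in siSCR (blue) and siPRMT1 (red), filled where the adjusted p was under 0.05. Ccne1 lies at -0.31 in siSCR and 0.017 in siPRMT1, while Ccnb2 and Cenpf lie at -0.40 and -0.34 in siPRMT1 with open points in siSCR.

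With DMSO or ATRA the knockdown was compared across the border of the 6 arrays that stood apart, and most genes of the array were called. With DMSO 25 of 33 members were called, 75.8% against 65.9% of all genes, with 17 higher against 31.3% and 8 lower against 34.6%. With ATRA 26 of 33 were called, 78.8% against 70.1%, with 18 higher against 32.2% and 8 lower against 38%. In all 4 scalings 8 members were higher and 8 lower with DMSO, 24.2% each against 21.3% and 23% of all genes, 44.3% together. The same numbers were called with ATRA, against 22.2% and 23.5%, 45.7% together. The lower shares and the shares in all 4 scalings are near the background and are not a result about the members. Both comparisons split the members within each phase: the E cyclins, E2f1, Mki67, Ccna2, Plk1 and Aurkb were higher in siPRMT1 embryoid bodies under all scalings in both, and Cdc6, Mcm3, Mcm6, Rrm1, Cdk2, Aurka and Bub1b were lower. E2f1 had the widest difference of the G1/S genes with DMSO. It read 9.35, 9.32 and 9.57 in siSCR and 10.57, 10.55 and 10.53 in siPRMT1 embryoid bodies with DMSO, without overlap, a difference of 1.14 ± 0.068 (adjusted p = 7.95e-12). With ATRA it was 9.53, 9.32 and 9.59 against 10.64, 10.63 and 10.71, a difference of 1.18 ± 0.068 (adjusted p = 4.12e-12).

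Among the G2/M genes Mki67 had the widest difference with DMSO. With DMSO it read 10.85, 10.85 and 10.85 in siSCR and 11.73, 11.70 and 11.79 in siPRMT1, a difference of 0.89 ± 0.069 (adjusted p = 4.55e-10), and with ATRA the difference was 0.95 ± 0.069. Ccna2, the A cyclin of S phase and G2, differed by 0.76 ± 0.058 and 0.88 ± 0.058, and Plk1, the kinase of centrosome maturation, by 0.75 ± 0.054 and 0.84 ± 0.054. In the other direction Mcm3, a helicase subunit, read 12.48, 12.59 and 12.49 in siSCR and 11.86, 11.89 and 11.93 in siPRMT1 with DMSO. Its groups did not overlap, and the difference was -0.62 ± 0.043 (adjusted p = 9.78e-11), with -0.53 ± 0.043 for ATRA. Rrm1 differed by -0.48 ± 0.064 and -0.24 ± 0.064, and Cdc6, the origin loader, by -0.43 ± 0.066 and -0.47 ± 0.066. Subunits of the same helicase thus differed in direction as deposited: with DMSO Mcm3 and Mcm6 fell in all 4 scalings, while Mcm2, Mcm4 and Mcm5 rose by 0.30, 0.46 and 0.36. With 1 SD for all arrays the last 3 read -0.11, 0.12 and -0.073 and none of them was called. The G2/M median with DMSO was 0.33 as deposited and 0.0043 with 1 SD for all arrays, and the G1/S median was 0.055 and -0.33, beside -0.090 and -0.053 over all genes. G2/M stayed above G1/S by 0.21 to 0.33 with DMSO and by 0.29 to 0.36 with ATRA.

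Cell type markers differed between the lines here too. As deposited 31.3% and 32.2% of all genes were higher with DMSO and with ATRA, and 34.6% and 38% lower. The share of fibroblast or feeder cell markers lower was near these. In all 4 scalings 9 and 10 endoderm and 5 and 2 primed epiblast markers were higher. In the same scalings 7 and 7 ES cell and 4 and 5 fibroblast or feeder cell markers were lower, and 1 and 1 of the latter higher. Of all genes 21.3% and 22.2% were higher and 23% and 23.5% lower in all 4 scalings. Endoderm markers were higher in siPRMT1 embryoid bodies for 11 of 12 with DMSO and 10 of 12 with ATRA, and none was lower. Their sums were 17144 to 19479 in siSCR and 36769 to 37923 in siPRMT1 with DMSO, and 14841 to 16339 and 33673 to 35060 with ATRA. Primed epiblast markers were higher for 5 of 5 and 4 of 5, with sums of 3746 to 3991 against 9124 to 9782 with DMSO and 2335 to 2421 against 3004 to 3165 with ATRA. ES cell markers were lower for 7 of 10 and higher for 1 in both, with sums of 70265 to 71170 against 59367 to 59769 with DMSO and 65562 to 67700 against 53069 to 55648 with ATRA. Of 15 fibroblast or feeder cell markers 6 fell in each and 2 and 1 rose, with sums of 5059 to 5129 against 4884 to 5191 and 4561 to 4696 against 4491 to 4733, and Lum and Postn among the dimmest 25%. Their part in the members' differences was not tested.

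The same border runs between siSCR embryoid bodies at day 4 and those with DMSO. There 28 of 33 members were called, 84.8% against 61.1% of all genes, 10 higher against 30.8% and 18 lower against 30.3%. In all 4 scalings 20 of 33 were called, 10 higher and 10 lower with DMSO, against 42.3% of all genes. Cdc6, Cdc25a, Mcm3, Mcm6, Mcm7, Rrm1, Cdk2, Chaf1a, Aurka and Bub1b were higher with DMSO, and Ccne1, Ccne2, E2f1, E2f2, Mcm4, Mki67, Ccna2, Cdk1, Plk1 and Aurkb lower. Rrm1 read 12.10, 11.89 and 11.90 at day 4 and 12.66, 12.56 and 12.64 with DMSO, a difference of 0.66 ± 0.064 (adjusted p = 1.61e-08). Mki67 read 11.86, 11.96 and 12.04 and 10.85, 10.85 and 10.85, a difference of -1.11 ± 0.069 (adjusted p = 2.05e-11). In siPRMT1 embryoid bodies the same vehicle left no member called by limma, against 0.461% of all genes, and 0 members had an unadjusted p under 0.05 against 8.11% of all genes; the differences ran from -0.17 to 0.090. Rrm1 there read 12.13, 12.13 and 12.21 and 12.15, 12.12 and 12.15, and Mki67 11.79, 11.78 and 11.83 and 11.73, 11.70 and 11.79, with overlapping groups for both genes. The interaction of line and vehicle called 23 of 33 members, 69.7% against 44.6% of all genes, 14 positive against 25.1% and 9 negative against 19.5%, with E2f1 at 1.15 ± 0.10 and Rrm1 at -0.68 ± 0.090 (adjusted p = 5.14e-09 and 2.84e-06). In all 4 scalings 2 G1/S and 5 G2/M genes were positive and 7 and 2 negative, against 17.1% and 15% of all genes. The sign of 4 G1/S and 5 G2/M genes changed between scalings, so the larger number of positive calls belongs to the values as deposited. This interaction shares the siSCR arrays with DMSO and with day 4 with the comparisons before it.

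ATRA was compared with DMSO within each line, on the same side of that border. In siSCR embryoid bodies 10 of 33 members were called, 30.3% against 23.4% of all genes, 11.2% higher and 12.2% lower, with 4 G1/S genes and 5 G2/M genes lower and 1 G2/M gene higher. In all 4 scalings only Ccne2 and Rrm1 fell, 2 of 33 against 8.49% of all genes. Ccne2 read 8.79, 8.60 and 8.61 with DMSO and 8.23, 8.50 and 7.91 with ATRA, a difference of -0.46 ± 0.12 (adjusted p = 0.0103) in which the arrays did not overlap. Rrm1 read 12.66, 12.56 and 12.64 and 12.28, 12.44 and 12.24, a difference of -0.30 ± 0.064 (adjusted p = 0.00182), and lost its call only when the 2 groups were fitted alone. That fit called 0 of 33 members, and the count was 5 without the first siSCR array with DMSO, 6 without the third with DMSO or the third with ATRA, and 13 at most with another array left out. In siPRMT1 embryoid bodies limma called 0 of 33 members, against 12% of all genes, 6.05% higher and 5.94% lower. An unadjusted p under 0.05 was found for 9.09% of the members and 22.6% of all genes, and the differences ran from -0.20 to 0.11. The interaction of line and ATRA also called 0 of 33 members, against 3.24% of all genes, 1.92% positive and 1.32% negative, with 12.1% and 17.4% at an unadjusted p under 0.05, so a difference in the ATRA response of the members between the lines was not detectable with 3 arrays a group.

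Other genes of the cell cycle pathway, 90 of 92 listed with a probe set of their own, moved beside the members. In ES cells the knockdown raised 12 and lowered 13 of the 90, 13.3% and 14.4% against 7.63% and 11.2% of all genes. Of 30 genes of mitosis and its exit 7 rose, against 7.63% of all genes, and none fell, all 7 in each scaling, and the list had a median of 0.083 beside 0.0061 over all genes. Among the 7 were Pttg1, which encodes securin, at 0.40, and Incenp, the scaffold of the Aurora B complex, at 0.37. Of 8 G1 cyclins and kinases Ccnd1, Ccnd2 and Cdk6, which together phosphorylate the retinoblastoma protein, differed by -0.59, -0.65 and -0.50. Mnat1 of the same 8 went the other way, at 0.39. In all scalings 1 of the 8 rose and 3 fell, against 7.35% and 7.43% of all genes. Of 6 genes of Cdk inhibitors 1 rose and 1 fell in all scalings. The 1 that rose was Cdkn1b, which encodes p27, at 0.40. Of 29 genes of origin licensing and DNA synthesis 1 rose and 5 fell, 3.45% and 17.2% against those same shares of all genes, and 3 of the 5 fell in all scalings.

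At day 4 the knockdown raised 1 of the 30 mitosis genes and lowered 4, against 11.4% and 7.01% of all genes, all 5 under each scaling, and the list median of -0.015 was near the -0.016 of all genes. Pttg1 differed by -0.45 and Pkmyt1, a kinase that holds Cdk1 inactive, by -0.43, and Cdkn1c, which encodes p57, rose by 0.88. From ES cells to day 4, 12 of the 30 mitosis genes fell and 2 rose in siPRMT1 cells, against 18.4% and 23% of all genes. In all scalings 11 fell and 1 rose, against 14.4% and 16.6% of all genes. In siSCR cells 5 fell and 2 rose, 16.7% and 6.67% against 13.7% and 14.5% of all genes. Of them 1 and 2 did so in all scalings, against 9.86% and 13.4% of all genes. The list medians were -0.15 in siPRMT1 and -0.047 in siSCR cells, beside -0.043 and 0.00067 over all genes. The interaction was negative for 7 of the 30, against 8.83% of all genes, and positive for none, each under all scalings, with Pttg1 at -0.85 and Pkmyt1 at -0.49. It was positive for Ccnd2 at 0.72, for Cdkn1c at 0.84 and for Fen1, the flap endonuclease of Okazaki fragments, at 0.56.

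With DMSO and with ATRA the pocket protein, E2F and DREAM list was higher in siPRMT1 embryoid bodies for 13 and 15 of 17 genes and lower for 1 and 0. As deposited 31.3% and 32.2% of all genes were higher and 34.6% and 38% lower. In all scalings 8 and 12 of the list were higher, against 21.3% and 22.2% of all genes. Other pathway lists went mostly the other way in all scalings, where 23% and 23.5% of all genes were lower. Of 30 genes of mitosis and its exit 2 and 1 were higher and 11 and 10 lower. Of 29 genes of origin licensing and DNA synthesis 5 and 6 were higher and 9 and 12 lower. Foxm1, the activator of G2/M genes, differed by 1.40 and 1.62, and Rb1, the retinoblastoma protein, by 1.08 and 1.62. These values cross the border of the 6 arrays. With ATRA against DMSO, Cdk6 differed by -0.88 in siSCR and -0.76 in siPRMT1 embryoid bodies, and Mybl2, which encodes B-Myb, by -0.51 and -0.31. Ccnd2 rose with ATRA by 0.31 and 0.50, and Cdkn1c by 0.41 and 0.37, in a comparison in which no member was called in siPRMT1 cells.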

How the data were processed

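RNeasy kits gave total RNA, of which 300 ng a sample went into biotinylated cDNA for Affymetrix whole-transcript arrays, per the labels' protocols. The authors' deposited table gives each probe set 1 log2 value an array, a base read from the range of 2.14 to 14.5; for its summarisation and normalization, the method was not given in the sources used here. Array medians ran from 7.47 to 7.67, and no 2 arrays were identical. Of 35556 probe sets 21789 have 1 gene symbol in GEO's platform annotation, 1621 several and 12146 none; the brightest single-symbol set stood for each of 19938 genes. All 33 measured symbols matched the current symbol by gene ID. The values were used as deposited.

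Group means over all 24 arrays were fitted with lmFit, contrasts.fit and eBayes of limma 3.58.1 in R 4.3.3 (16 residual degrees of freedom), with Benjamini-Hochberg adjustment over all genes and a threshold of 0.05. No detection calls were used. The fit was tested on simulated data of 19938 genes (5 draws), with known changes placed in a small random share of them. The knockdown comparison in ES cells recovered 37.3%, 82.7% and 98.8% of 1.25-, 1.5- and 2-fold changes, and the interaction with embryoid body formation 12.8%, 54.6% and 88.2%. In the data 18.8% of all genes were called in ES cells, and members had smaller standard errors than other genes. The simulated rates are therefore not those of the members. Alternatives were a replicate block, fitting only the groups compared, 3 further scalings, averaging the probe sets of a gene, leaving out the dimmest 25% of genes, array weights, trend and robust eBayes, leaving out each array, and, chosen after seeing the data, leaving out the 6 siSCR arrays with DMSO or ATRA.

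The members and gene lists were chosen with earlier results of these data known. The results turn on called members whose groups do not overlap, up to 6 with the largest rise and 6 with the largest fall a comparison (interactions by the call alone); up to 4 pathway genes a direction are eligible for naming. Sequences are RefSeq's for GRCm38.p6. Samples were not treated as paired by replicate number. Over 84 pairs of arrays with the same number the correlation of deviations from the group means ran from -0.50 to 0.61 with a median of 0.012. Over 168 pairs with different numbers it ran from -0.65 to 0.60 with a median of -0.0069. These correlations cannot exclude pairing in some groups.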

Additional observations from a re-analysis of the deposited data

Results flagged for a closer look

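The passage from ES cells to day 4 embryoid bodies differed between the lines, by limma's interaction term, for 9 members. It was more positive in siPRMT1 cells for Chaf1a at 0.33, Ccne1 at 0.32, Rrm1 at 0.28, Mcm5 at 0.24, Cdc20 at 0.23 and Mcm2 at 0.20, and more negative for Cenpf at -0.45, Ccnb2 at -0.44 and Aurkb at -0.31. Of these, Ccne1, Cenpf, Ccnb2 and Aurkb were called in all 4 scalings, 4 of 33 members against 18.2% of all genes. The difference between siSCR and siPRMT1 embryoid bodies in going from day 4 to DMSO was positive for E2f1 at 1.15, Mki67 at 1.05, Ccne2 at 0.96, Ccna2 at 0.75, Aurkb at 0.71 and Plk1 at 0.71. It was negative for Rrm1 at -0.68, Mcm3 at -0.62, Cdc6 at -0.52, Mcm6 at -0.44, Bub1b at -0.39 and Cdk2 at -0.37. These 12 values cross the border between the 6 siSCR arrays with DMSO or ATRA and the rest. Groups of 3 arrays were too small to test single arrays as outlying.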

How the results depend on the processing

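Counts of members called moved with the setting, and the cause of each move was not tested. In ES cells, where 5 were called, the knockdown count was 3 with only the groups compared, 8 without the dimmest 25% of genes, 13 with array weights, 9 with trend and robust eBayes and 9 without the 6 arrays, and 2 to 6 with 1 array left out. At day 4, where 10 were called, it was 6 with only the groups compared and 4 with 1 SD for all arrays (1 higher and 3 lower), and 4 to 11 with 1 array left out. With 1 SD the count was 24 (9 higher, 15 lower) with DMSO and 25 (8 and 17) with ATRA in place of 25 and 26, with 24 to 26 and 25 to 26 by array left out. From ES cells to day 4 the siSCR count of 9 was 4 with only the groups compared, 5 with median centring, 18 with array weights and 15 with trend and robust eBayes, and 6 to 12 by array left out; the siPRMT1 count of 12 was 20 with array weights and 9 to 14 by array left out. Their interaction, 9 as deposited, was 9 with quantile normalization (3 and 6), 5 with median centring (1 and 4), 8 with 1 SD (1 and 7), 19 with array weights and 14 with trend and robust eBayes, and 5 to 11 by array left out. ATRA in siSCR, with 10, gave 0 with only the groups compared, 5 with quantile normalization (3 and 2), 6 with 1 SD (4 and 2) and 1 with array weights, and 5 to 13 by array left out, with 5 without the first and 6 without the third siSCR array with DMSO or the third with ATRA. ATRA in siPRMT1, with 0, gave 2 with median centring, 1 without the dimmest genes, 7 with array weights, 1 with trend and robust eBayes and 2 without the 6 arrays, and 0 to 1 by array left out; the interaction of line and ATRA stayed at 0 by array left out. The vehicle count in siSCR, 28, was 26 with 1 SD (16 and 10) and 25 to 28 by array left out, that in siPRMT1, 0, was 1 with array weights and 0 by array left out, and their interaction, 23, stayed at 23 with 1 SD (8 and 15) and ran from 20 to 24. From ES cells to day 4 in siPRMT1, Mcm5 turned from 0.15 to -0.0058 with 1 SD. The replicate block gave 5 calls in ES cells, 7 at day 4 and 8 for the interaction with embryoid body formation, and lost Chaf1a (adjusted p = 0.0602) and Ccnb2 (0.0506) at day 4 and Cdc20 in the interaction (0.0535). Of 92 values for named members, 89 kept direction and call under the block, 80 under quantile normalization, 78 under median centring, 75 with 1 SD, 78 with only the groups compared and 86 with array weights, and 2079 of 2208 with 1 array left out. With 3 arrays a group, simulated 1.25-fold differences in genes drawn from the whole array were recovered in 37.3% of cases for the knockdown in ES cells. For the interaction with embryoid body formation it was 12.8%. Neither rate was estimated for the members.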
